A study of Mus musculus with 18 samples.

Results

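The genes described here are the mouse histone genes that make the bulk of the histones packed onto new DNA. They were chosen by name: protein-coding genes on autosomes whose symbol starts with Hist1h, Hist2h, Hist3h or Hist4h, or with H1f, H2ac, H2bc, H3c or H4c and a digit. In the RefSeq annotation of GRCm38.p6, the mm10 assembly of the deposited lists, 67 genes fitted by their present symbol and 4 by an older one (H2bu2, H2aw, H4bc24 and H4f16), which gave 71 of 20665 autosomal protein-coding genes. They comprise 10 linker histone H1 genes, 18 H2A, 18 H2B, 12 H3 and 13 H4 genes. Most lie in clusters: 54 are on chromosome 13, in runs of 18, 5 and 31 genes called 13a, 13b and 13c here, 10 are on chromosome 3 and 2 on chromosome 11. The name rule also takes in 4 linker histone genes outside the clusters, H1f8 and H1f10 on chromosome 6 and H1f0 and H1f7 on chromosome 15, which are not regarded as replication-dependent, and H4f16 on chromosome 6.

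Clustered histone genes are short, usually lack introns and are transcribed mainly in S phase. Their mRNAs end in a stem-loop bound by Slbp in place of a poly(A) tail, and Npat drives their transcription. Adult cardiomyocytes divide rarely, and use replacement histones such as H3.3 in place of the replication-dependent kinds. G9a (gene Ehmt2) is a methyltransferase that places H3K9me2, a mark of repressed chromatin. H3K27me3 is placed by Polycomb repressive complex 2 and also marks repressed genes. Mef2c is a transcription factor of the muscle lineage.

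The study used chromatin immunoprecipitation and sequencing of cardiomyocyte-enriched cells from C57BL/6J mice. KO mice were G9a flox/flox and carried alphaMHC-MerCreMer +/-, in which a cardiomyocyte promoter drives a tamoxifen-dependent Cre. Cre mice carried alphaMHC-MerCreMer +/- alone, so the transgene is shared by both groups. For G9a, H3K9me2, H3K27me3 and Mef2c there were 2 KO and 2 Cre libraries each, with 1 KO and 1 Cre input library, 18 in all. The labels used here give no age, tamoxifen schedule or number of animals per library. In a population enriched for a cell type, a change in the mix of cells and a change of signal per cell cannot be told apart.

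Each deposited list holds regions that the authors' comparison scored as different between KO and Cre. A region carries a whole-number signal value for each of the 4 libraries, of a scale not given in the sources used here, and a −log10 p of the authors. A region is called lower or higher by the direction of that list, and its log2 ratio is that of the KO mean over the Cre mean, each plus 1. A gene's window is its span with 2 kb on either side. A region named for a gene lies in its window, and over the gene itself only where that is said. On autosomes the G9a list holds 617784 regions, the H3K9me2 list 711506, the H3K27me3 list 502009 and the Mef2c list 532522. They are not maps of occupancy: a gene without a region may have carried the mark at like levels in both groups, or have had no reads that could be placed. The depth of the libraries is unknown from these files. In Ehmt2, the targeted gene, a G9a region (chr17:34907251-34908750) had 67 and 106 in KO, against 410 and 353 in Cre. It was lower in both KO libraries, with a log2 ratio of −2.13. The other G9a regions of Ehmt2 were smaller in difference and not of one direction: chr17:34905901-34906800 had 175 and 246 in KO, against 123 and 174 in Cre, and chr17:34899351-34900050 had 73 and 74 in KO, against 157 and 75 in Cre. H3K9me2 and Mef2c also had listed regions of both directions in Ehmt2. A Mef2c region across part of the first (chr17:34905101-34908450) had 830 and 304 in KO, against 1082 and 777 in Cre, and overlapping groups. These values measure neither the deletion nor the G9a protein, so the loss of G9a was not tested here.

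The promoters of 4 genes that lead the results below show how unlike these genes are. RefSeq promoters (GRCm38.p6, 300 bases) were matched by gene identifier for 66 of the 71 genes, all but H2bc21, H4c14, H3c1, H3c7 and H2bc4. Capitals mark the TATA box TATAAA, the CCAAT box and the octamer ATGCAAAT bound by Oct-1, on either strand, and the MEF2 element. H4c11 (chr13:21734784-21735083, plus strand) and H2bc12 (chr13:22035571-22035870, plus strand) are clustered genes of the somatic kind. H2ac1 (chr13:23934187-23934486, plus strand) encodes the testis H2A (TH2A) and is transcribed away from H2bc1, its testis H2B (TH2B) partner. H1f7 (chr15:98257258-98257557, minus strand) encodes the spermatid linker histone H1T2 and stands alone.
H4c11: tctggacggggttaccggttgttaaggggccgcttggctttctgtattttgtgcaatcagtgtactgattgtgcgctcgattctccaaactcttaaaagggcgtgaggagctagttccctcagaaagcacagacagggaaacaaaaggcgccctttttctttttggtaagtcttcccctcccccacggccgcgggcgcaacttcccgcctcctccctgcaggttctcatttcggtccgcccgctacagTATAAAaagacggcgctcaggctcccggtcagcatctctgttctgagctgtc
H2bc12: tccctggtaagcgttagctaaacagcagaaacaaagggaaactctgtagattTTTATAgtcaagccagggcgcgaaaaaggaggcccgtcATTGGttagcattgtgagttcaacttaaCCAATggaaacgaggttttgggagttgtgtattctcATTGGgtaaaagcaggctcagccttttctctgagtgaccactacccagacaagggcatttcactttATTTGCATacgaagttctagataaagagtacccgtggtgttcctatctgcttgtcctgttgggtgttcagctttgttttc
H2ac1: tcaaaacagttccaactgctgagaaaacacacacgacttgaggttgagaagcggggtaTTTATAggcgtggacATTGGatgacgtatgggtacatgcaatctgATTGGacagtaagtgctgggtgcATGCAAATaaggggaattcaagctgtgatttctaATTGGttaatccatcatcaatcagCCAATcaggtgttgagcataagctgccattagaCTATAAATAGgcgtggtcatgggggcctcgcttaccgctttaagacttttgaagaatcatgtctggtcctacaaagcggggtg
H1f7: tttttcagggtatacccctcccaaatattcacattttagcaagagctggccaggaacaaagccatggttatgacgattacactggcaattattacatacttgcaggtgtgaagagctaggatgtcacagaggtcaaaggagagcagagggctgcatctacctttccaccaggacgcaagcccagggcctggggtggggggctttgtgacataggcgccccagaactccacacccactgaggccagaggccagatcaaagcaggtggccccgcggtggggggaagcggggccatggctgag
H4c11 has a TATA box and no CCAAT, whereas H2bc12 has 3 CCAAT boxes and an octamer, and H1f7 has none of these letters. In H2ac1 the MEF2 element overlaps one of its TATA boxes. In the counts that follow, a histone gene is counted if any of its listed promoters holds the letters. The 32851 promoters of the whole annotation, from 27025 genes, are counted singly, so the shares differ in unit. Among the histone promoters, 35 of 66 (53%) held TATAAA, against 13.6% of all 32851 promoters. CCAAT was in 54 (81.8%), against 37.4% of all: all 18 H2A, all 16 H2B and all 10 H3 promoters, 7 of 10 H1 and 3 of 12 H4 promoters. The octamer was in 14 (21.2%), against 1.74% of all, in 7 H2A and 7 H2B promoters and in no H1, H3 or H4 promoter. The MEF2 element was found in H2ac1 alone, 1.52% of the histone promoters against 0.557% of all, and H2ac1 had no Mef2c region in its window.

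Fewer histone genes had a listed region than other genes did. A G9a region lay in the window of 28 of 71 histone genes (39.4%), an H3K9me2 region in 34 (47.9%), an H3K27me3 region in 34 (47.9%) and a Mef2c region in 22 (31%). Over all autosomal genes 91.8% had a G9a region, 92.8% an H3K9me2, 69.1% an H3K27me3 and 92.2% a Mef2c region. Histone genes are short, with a median span of 496 bases, so the nearer comparison is with other genes spanning at most 2 kb. Among these, G9a regions lay at 36.5% of 63 histone genes, against 74.1% of 2228 other genes. For H3K9me2 the shares were 46% of histone genes against 82%, for H3K27me3 49.2% against 60.6%, and for Mef2c 30.2% against 72.6%. The gap was narrowest for H3K27me3.

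The 50 other genes that lie between the first and last histone gene of chromosome 13, 36 of them vomeronasal receptors, had G9a regions at 86%, H3K9me2 at 98%, H3K27me3 at 88% and Mef2c at 90%. Counted by length, the histone windows held 11.94 G9a regions per 100 kb, against 27.49 at these 50 genes and 22.43 at all other protein-coding genes. H3K9me2 had 16.15 regions per 100 kb at histone genes, against 34.97 at the 50 genes and 26 at all others, and Mef2c had 9.832, against 24.36 and 21.13. H3K27me3 had 16.85 at histone genes, close to 17.44 at all other genes and below 34.97 at the 50 genes. Among genes of at most 2 kb, H3K27me3 was also below, with 20.47 at histone genes against 25.72 at other genes. The other targets there had 9.983 against 27.46 (G9a), 13.48 against 34.02 (H3K9me2) and 6.489 against 24.62 (Mef2c). The histone clusters differed: 13b, with 11.9 kb of windows, held 50.43 H3K27me3 and 25.21 Mef2c regions per 100 kb, while 13c held 7.402 and 11.1. These are descriptions of the lists; genes of a cluster share neighbours and often regions, so no test was made, and the part of chromosome position was not tested.

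**Figure D1:**
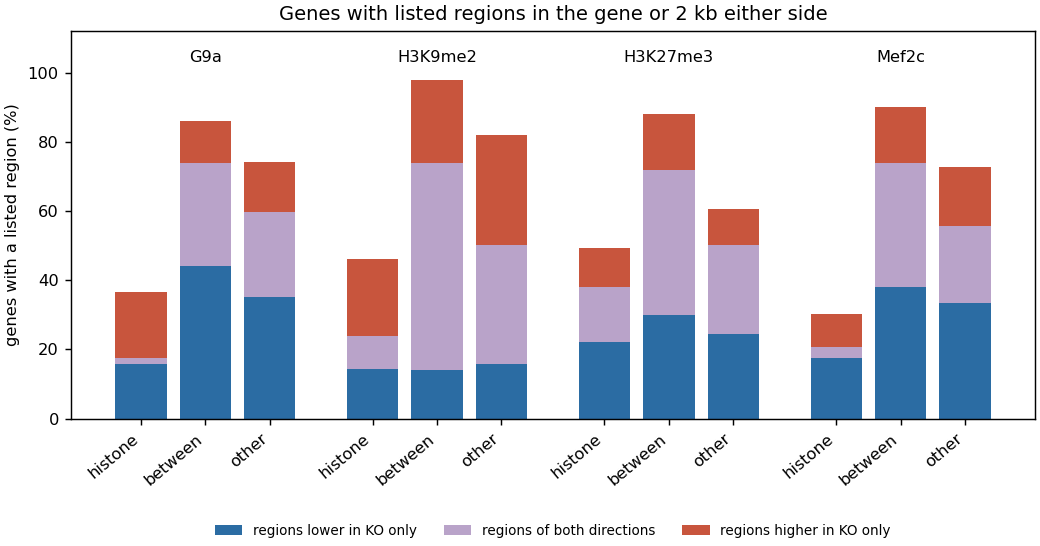
Share of genes (%, y axis) with a listed region in the gene or 2 kb either side, for each target, among 63 histone genes of at most 2 kb (histone), 50 other genes between the chromosome 13 histone genes (between) and 2228 other genes of at most 2 kb (other). Colours part genes with only lower, both or only higher regions in KO; the histone bar is the lowest of the 3 for every target, at 30.2 to 49.2%.

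A region for at least 1 target was found at 52 histone genes, and 19 had none: H2bc23, H2ac23, H4c18, H2ac24, H4bc24, H4c8, H2ac10, H3c8, H3c6, H2ac8, H2bc8, H4c4, H1f2, H1f0, H2ac19, H2ac18, H3c13, H2bc18 and H4f16. Among genes of at most 2 kb, 16 histone genes (25.4%) had none, against 6.78% of other genes. H2bc23 and H4bc24 have identical promoters in the RefSeq table, and histone genes that are near copies of each other can share reads, so an absence of regions there is uncertain. The effect of shared reads was not tested. At the other end, 7 genes had regions for all 4 targets: H4c11, H2bc22, H4c9, H2ac11, H2bc6, H3c1 and H1f8. H2bc6 and H2bc22 are annotated with long spans, up to 37455 bases for H2bc6, and the H2bc6 window alone held 30 of the 156 histone regions.

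Directions were mixed for every target. G9a was lower in KO in 15 histone regions and higher in 19, so 44.1% were lower (exact 95% binomial interval 27.2 to 62.1%), against 61.6% of the whole list. H3K9me2 was lower in 22 and higher in 24, or 47.8% lower (32.9 to 63.1%), against 39.7% of its list. H3K27me3 was lower in 27 and higher in 21, or 56.2% lower (41.2 to 70.5%), against 63.2% of its list. Mef2c was lower in 17 and higher in 11, or 60.7% lower (40.6 to 78.5%), against 61.7% of its list. The G9a list as a whole leaned to lower values in KO, and its histone regions did not lean that way by count; the list's share lies inside the interval, which treats neighbouring regions as independent and covers counting error only. Scaling the 4 libraries of a list to one median moved the median log2 ratio of the whole G9a list by 0.31, the H3K9me2 list by −0.29, the H3K27me3 list by 0.28 and the Mef2c list by 0.33, and lower H3K27me3 histone regions then numbered 26 (54.2%), while the counts of the other targets stayed as above. The median log2 ratio of the G9a histone regions was 0.52, against −0.73 in the whole list, and without the first or the second listed KO value it was −0.01 or −0.09. The H3K9me2 median was 0.63, against 0.72 in its list, and −0.04 without the second KO value. The H3K27me3 median was −0.38, against −0.64 in its list, but 0.30 over gene spans alone, and the Mef2c median was −0.98, against −0.75 in its list. Listed ratios fall on both sides of a gap at 0, so a few regions can move such a median across it.

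By gene, 12 histone genes had only lower G9a regions (the background is 14.3% of all genes) and 12 only higher ones (background 7.88%), with 4 of both kinds (background 69.6%). For H3K9me2, 11 genes had only lower regions (background 6.92%), 14 only higher (background 14.9%) and 9 both (background 70.9%). For H3K27me3, 14 had only lower regions (background 12.8%), 7 only higher (background 9.14%) and 13 both (background 47.2%). For Mef2c, 11 had only lower regions (background 14.7%), 7 only higher (background 7.39%) and 4 both (background 70.1%). Genes with many regions seldom have a single direction, so these shares depend on how few regions histone genes have.

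No histone region passed a test against the spread between libraries. The limma test on log2(value + 1), adjusted by Benjamini-Hochberg over each whole list, called 0 of 34 G9a, 0 of 46 H3K9me2, 0 of 48 H3K27me3 and 0 of 28 Mef2c histone regions at 0.05. Over the whole lists it called 0%, 0%, 0.00119% and 0% of regions. At an unadjusted p under 0.05 it had 2 G9a, 5 H3K9me2, 5 H3K27me3 and 5 Mef2c histone regions, against 6.5%, 11.1%, 15.3% and 11.3% of the lists. Both G9a regions were lower in KO (background 5.12% lower and 1.38% higher). Of those of H3K9me2, 1 was lower (background 2.89%) and 4 higher (background 8.19%), and all 5 of H3K27me3 were lower (background 12.3%, with 3% higher). Of those of Mef2c, 4 were lower (background 8.62%) and 1 higher (background 2.66%). The KO values did not overlap the Cre values in 17 G9a regions (50%; background 61.5%), 31 H3K9me2 regions (67.4%; background 65.7%), 31 H3K27me3 regions (64.6%; background 67.1%) and 22 Mef2c regions (78.6%; background 65.9%). Without the first listed KO value, limma called 2 G9a histone regions, those at H3c1 and H1f1 and at H1f7, each with an adjusted p of 0.0398; there the KO group is 1 library, listed at 0 and 5, assumed to vary like the Cre libraries. With 2 libraries against 2, an exact two-sided permutation test cannot give a p below 0.333. In simulated lists, limma with the adjustment recovered at most 1 of 200 changes of 2-fold for any target, and 90 to 177 of 200 changes of 8-fold. Those lists were smaller than the real ones and had the same spread for every region, so the rates may not carry over. The 0 calls therefore show no absence of change near 2-fold, and do not settle larger changes. The regions were listed because they differed, so even the unadjusted p-values are too small, and the p-values measure the spread between libraries whose origin in separate animals is not stated.

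**Figure D2:**
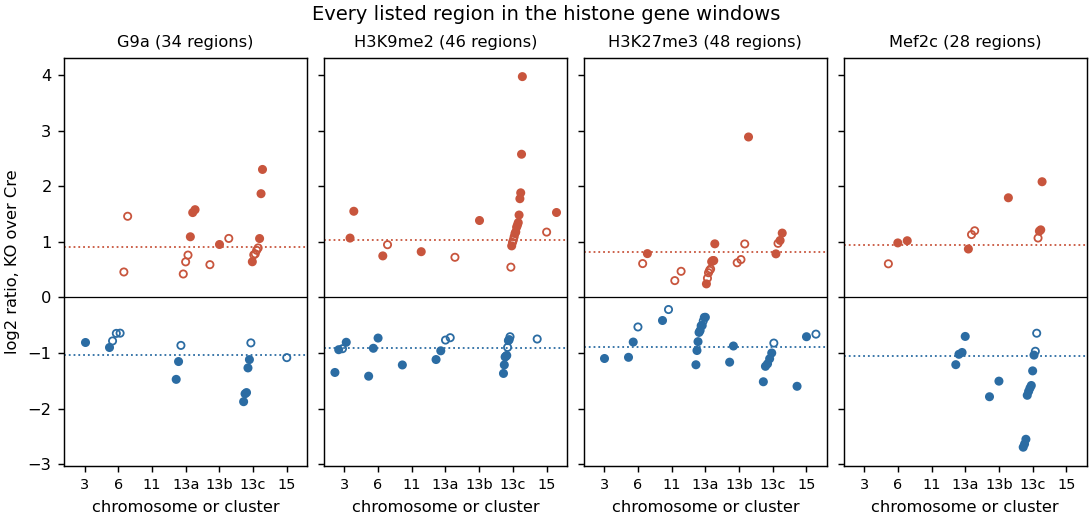
The log2 ratio of KO over Cre (y axis) for each of the 156 listed histone regions, by target and by chromosome or cluster (x axis). Filled points have groups that do not overlap, and dotted lines are the medians of the lower and higher regions of the whole list; H3K9me2 reaches its highest ratio, 3.97, and Mef2c its lowest, −2.69, in cluster 13c.

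H3K9me2, the product of G9a, was listed as higher in KO in 15 regions of cluster 13c, the largest cluster, and as lower in 9. So 37.5% of its regions there were lower, near the 39.7% of the whole H3K9me2 list. The H2bc6 window alone held 8 of the 15 higher regions. The leading region lay over the divergent pair H2bc1 and H2ac1 (chr13:23933901-23935850), whose promoter is printed above. Its values were 472 and 454 in KO, against 73 and 196 in Cre. Both KO values were more than the Cre values, with a log2 ratio of 1.78, a −log10 p of 40.4 in the authors' deposited list and a limma difference of 1.94 ± 0.55 (SE; unadjusted p of 0.00655, adjusted p = 0.400). A short neighbouring region at chr13:23935951-23936300 had 51 and 64 in KO, against 54 and 142 in Cre, and its groups overlapped. G9a itself was higher over the same pair (chr13:23932901-23934450), at 435 and 229 in KO, against 244 and 141 in Cre, with overlapping groups. H3K27me3 past the end of H2bc1 (chr13:23929351-23931750) was lower, at 370 and 105 in KO, against 544 and 479 in Cre, a log2 ratio of −1.10.

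H1f7, another histone gene of the male germ line, also had H3K9me2 higher over its start and H3K27me3 lower past its end. H3K9me2 over the start of H1f7 (chr15:98256751-98257800) had 192 and 264 in KO, against 67 and 88 in Cre, a log2 ratio of 1.54. H3K27me3 past its end (chr15:98253101-98254700) had 127 and 106 in KO, against 426 and 284 in Cre, a log2 ratio of −1.60. Inside that H3K27me3 region, H3K9me2 (chr15:98254051-98254650) was listed as lower too, with 33 and 87 in KO, against 58 and 145 in Cre, and overlapping groups. The groups did not overlap in the H3K9me2 region at the start or in the H3K27me3 region past the end, and the H3K27me3 region had a limma p of 0.00703 (adjusted p = 0.322). All 3 H3K27me3 regions of H1f7 were lower in KO, the one across its start with 276 and 204 in KO, against 379 and 406 in Cre. The G9a region inside H1f7 (chr15:98255951-98256650) had 144 and 5 in KO, against 184 and 134 in Cre, so the KO libraries differed more from each other than from Cre. No Mef2c region lay in the window.

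Of the other germline linker histones, H1f6 had higher regions alone, for 3 targets, and H1f8 had regions of both directions for 3 of 4 targets. H1f6 encodes H1t, made in spermatocytes, and its region at chr13:23695751-23696200 also lies in the window of H4c3. H3K9me2 there had 77 and 118 in KO, against 15 and 70 in Cre, and Mef2c 93 and 107 in KO, against 65 and 20 in Cre. H3K27me3 almost at the same place had 68 and 85 in KO, against 0 and 77 in Cre; its groups overlapped, and without the Cre library listed at 0 the difference was −0.01. H1f8 encodes the oocyte linker histone H1oo. Its 5 G9a regions pointed both ways: one at chr6:115946351-115948050 had 340 and 110 in KO, against 462 and 314 in Cre, and one at chr6:115943951-115944800 had 402 and 14 in KO, against 140 and 10 in Cre. The last one rested on a single KO library, and without it the log2 difference was −2.34. Mef2c before the start of H1f8 (chr6:115944151-115944850) had 182 and 116 in KO, against 50 and 96 in Cre, and the groups stood apart. These germline genes were grouped after their values were seen, and carry no test as a group.

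The somatic linker histones in cluster 13c had few regions. H1f1 had a G9a region over the gene itself, also in the window of H3c1 (chr13:23763651-23764200), with 63 and 0 in KO, against 73 and 138 in Cre. Mef2c, also over H1f1 (chr13:23763801-23764400), had 28 and 10 in KO, against 111 and 146 in Cre, a log2 ratio of −2.69 and the lowest of any histone region. H3K27me3 past the end of H1f1 (chr13:23765851-23767000) had 280 and 329 in KO, against 118 and 235 in Cre, so all its KO values were above the Cre values. H1f3 had 1 region, H3K27me3 at 27 and 15 in KO, against 33 and 91 in Cre. H1f4 lies beside the start of H2bc6, and its Mef2c region had 39 and 0 in KO, against 43 and 78 in Cre. H1f2 had no region. H1f10, a replication-independent linker histone, had H3K27me3 of 679 and 493 in KO, against 348 and 330 in Cre, over chr6:87981501-87982550, and H3K27me3 listed as lower in the regions on both sides, the first of which had 628 and 301 in KO, against 878 and 466 in Cre.

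In cluster 13a, 13 of 18 histone genes (72.2%) had an H3K27me3 region, near the 69.1% of all genes, and 3 of 18 (16.7%) had an H3K9me2 region, below the 92.8% of all genes. In cluster 13c, 10 of 31 (32.3%) had an H3K27me3 region and 20 of 31 (64.5%) an H3K9me2 region, both below all genes. A pair of stretches in 13a, the longest H3K27me3 regions of the histone genes, carried the highest H3K27me3 values when not divided by length. Per kb they had 370.9 (the longer) and 388.4, below 586.5 at a region of H2bu2. The longer, over H2bc14 and its promoter, with a start in the window of H3c10 (chr13:21719701-21726750), had 1961 and 2362 in KO, against 3626 and 2510 in Cre, with a −log10 p of 33.6 in the authors' deposited list. Both KO values were below both Cre values, though the upper KO and lower Cre value lay close, and the log2 ratio was −0.51 (limma difference −0.49 ± 0.20, SE; unadjusted p of 0.0344, adjusted p = 0.323). The other, over H2bc13, H2ac13 and H3c10 (chr13:21714201-21718650), had 1611 and 1419 in KO, against 2130 and 1753 in Cre, a log2 ratio of −0.36. With the libraries scaled to one median these differences were −0.23 and −0.07.

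H4c11, in the same cluster, had regions for all 4 targets in its window, and its promoter is printed above. H3K27me3 before and over the start (chr13:21733451-21735250) had 653 and 415 in KO, against 1073 and 783 in Cre, a log2 ratio of −0.80. G9a over the promoter and gene (chr13:21734751-21735600) had 45 and 89 in KO, against 171 and 205 in Cre, a log2 ratio of −1.47 (limma difference −1.55 ± 0.67, SE; unadjusted p of 0.0497, adjusted p = 0.454). In both, the groups did not overlap. The regions that abut this H3K27me3 region were listed in the other direction, the one after it with 583 and 615 in KO, against 533 and 479 in Cre. So the listed direction was not one along H4c11, and merging the regions was not tested. H3K9me2 over the gene was listed as higher, with 51 and 135 in KO, against 95 and 17 in Cre, and its groups overlapped. Before the start, H3K9me2 had 2 lower regions. The farther one (chr13:21732851-21733350) had 41 and 50 in KO, against 83 and 96 in Cre, with groups apart. The nearer one (chr13:21733651-21734100) had 40 and 42 in KO, against 105 and 36 in Cre, and overlapping groups. Mef2c before the start (chr13:21732501-21733100) was listed as higher, a log2 ratio of 0.87, with groups apart.

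The run from H1f5 to H2bc22, also in 13a, alternated in direction. H3K27me3 at H2ac22 and H2bc22 (chr13:21787051-21788600) had 837 and 775 in KO, against 682 and 336 in Cre, and further into H2bc22 (chr13:21792851-21793950) it had 298 and 447 in KO, against 155 and 226 in Cre. Both were higher, with log2 ratios of 0.66 and 0.96. H1f5 and H3c11 shared a region of 1183 and 611 in KO, against 629 and 651 in Cre (chr13:21782551-21784750), whose groups overlapped and which turned to −0.07 without the first KO value. G9a in H2bc22 had 2 lower and 3 higher regions. The leading one (chr13:21791901-21792900) had 133 and 56 in KO, against 252 and 171 in Cre, and the one beside it (chr13:21792951-21793900) was listed as higher, with 165 and 228 in KO, against 188 and 105 in Cre, and overlapping groups. Both values of KO were below those of Cre in the first. Mef2c under the second (chr13:21792701-21793750) had 124 and 108 in KO, against 275 and 188 in Cre, lower with the groups apart.

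**Figure D3:**
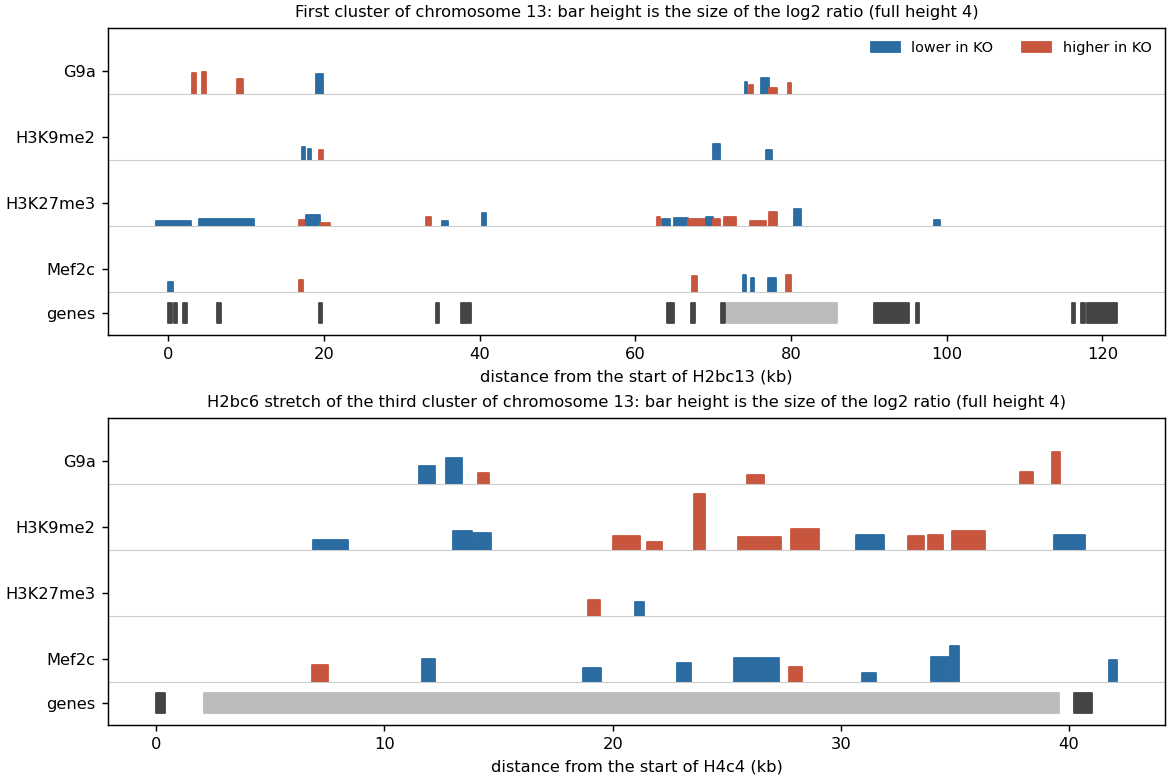
Listed regions of each target that lie in histone gene windows, along cluster 13a (top, distance in kb from the start of H2bc13) and along H2bc6 in cluster 13c (bottom, kb from the start of H4c4). Bar height is the size of the log2 ratio of KO over Cre and colour its direction. Listed regions outside the windows are not drawn, so a blank stretch between windows is not a lack of regions. Dark boxes are histone genes and light boxes the 2 long ones, H2bc22 and H2bc6. H3K27me3 has the most regions in the top map, and H3K9me2 and Mef2c have more than the other targets in the bottom one.

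The 5 genes of cluster 13b encode H2A, H2B and H4. Each of the 5 had only higher G9a regions (background 7.88% of all genes), but these were 3 regions shared among neighbours. In 1 of the 3 the groups did not overlap, past the end of H2ac12 (chr13:22032601-22033300), with 161 and 142 in KO, against 58 and 97 in Cre. The others had 23 and 163 in KO, against 83 and 40 in Cre, and 10 and 109 in KO, against 23 and 33 in Cre. Over the gene H2bc12, from just past its start, Mef2c (chr13:22035851-22036500) had 143 and 139 in KO, against 45 and 35 in Cre, a log2 ratio of 1.79. The Mef2c region that abuts it over the printed promoter (chr13:22035251-22035850) had 21 and 59 in KO, against 158 and 73 in Cre, a log2 ratio of −1.51. The groups stood apart in both, in opposite directions. Past the end of H4c9, H3K27me3 had 106 and 62 in KO, against 3 and 18 in Cre (chr13:22038701-22039050), a log2 ratio of 2.89 from low values.

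H2bc6, the H2B gene with the longest annotated span, had the most H3K9me2 and Mef2c regions. H3K9me2 at chr13:23605151-23605600 had 107 and 95 in KO, against 5 and 6 in Cre, a log2 ratio of 3.97 and a −log10 p of 22.3 in the authors' deposited list. Nearer H1f4 (chr13:23616451-23617900) it had 316 and 302 in KO, against 154 and 88 in Cre. Both regions were higher with groups apart. Mef2c at chr13:23606901-23608850 had 70 and 159 in KO, against 305 and 439 in Cre, a log2 ratio of −1.69, and the highest −log10 p of the Mef2c histone regions, 30.4, in the authors' deposited list (limma difference −1.78 ± 0.55, SE; unadjusted p of 0.00856, adjusted p = 0.399). Over nearly the same bases, H3K9me2 had 286 and 404 in KO, against 183 and 179 in Cre. A shorter G9a region inside them (chr13:23607451-23608200) had 147 and 113 in KO, against 58 and 108 in Cre. Its lower KO and upper Cre value lay close (limma unadjusted p of 0.338, adjusted p = 0.462). There Mef2c was listed as lower, and H3K9me2 and G9a as higher. The groups did not overlap in any of the 3, by a narrow gap for G9a.

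Toward H4c4, at the other end of H2bc6, each of the 3 had a lower region. G9a at chr13:23594251-23594950 had 25 and 52 in KO, against 125 and 163 in Cre, a log2 ratio of −1.88 and the highest −log10 p of the G9a histone regions, 14.2, in the authors' deposited list (limma unadjusted p of 0.0425, adjusted p = 0.454). H3K9me2 there (chr13:23594551-23595400) had 21 and 106 in KO, against 198 and 133 in Cre, and Mef2c (chr13:23593201-23593800) had 9 and 68 in KO, against 134 and 109 in Cre. Every KO value was below every Cre value in these 3 regions. Not all regions at this end were lower: Mef2c still nearer H4c4 (chr13:23588401-23589100) had 88 and 166 in KO, against 33 and 77 in Cre, a log2 ratio of 1.19 with groups apart, and G9a at chr13:23595651-23596150 had 32 and 170 in KO, against 57 and 61 in Cre. At the H1f4 end, where H2bc6 starts, a G9a region over the H2bc6 promoter (chr13:23620801-23621150) had 52 and 89 in KO, against 0 and 27 in Cre. An H3K9me2 region over the same promoter (chr13:23620901-23622250) had 53 and 187 in KO, against 265 and 232 in Cre, the opposite direction.

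Elsewhere in 13c, single regions led. G9a beside H4c2 (chr13:23756001-23756600) had 60 and 215 in KO, against 40 and 34 in Cre. Its log2 ratio, 1.87, leaned on the KO library listed at 215. G9a over H4c2 itself (chr13:23757051-23757550) was listed as lower, with 87 and 4 in KO, against 84 and 78 in Cre, and overlapping groups. H3K27me3 between H4c2 and H4c1 (chr13:23758401-23759900) had 111 and 144 in KO, against 389 and 216 in Cre, a log2 ratio of −1.24. Over H4c2 (chr13:23756401-23757400) it was listed as higher, with 252 and 157 in KO, against 82 and 118 in Cre. The groups stood apart in the G9a region beside H4c2 and in these H3K27me3 regions. Mef2c past the end of H2bc9 (chr13:23542151-23542650) had 30 and 4 in KO, against 122 and 100 in Cre, and past the end of H3c4 (chr13:23577101-23577650) 84 and 134 in KO, against 40 and 10 in Cre. H3K9me2 over the start of H2bc3 (chr13:23746151-23746950) had 138 and 210 in KO, against 93 and 0 in Cre, so the size of its log2 ratio, 1.88, leaned on a Cre library listed at 0.

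**Figure D4:**
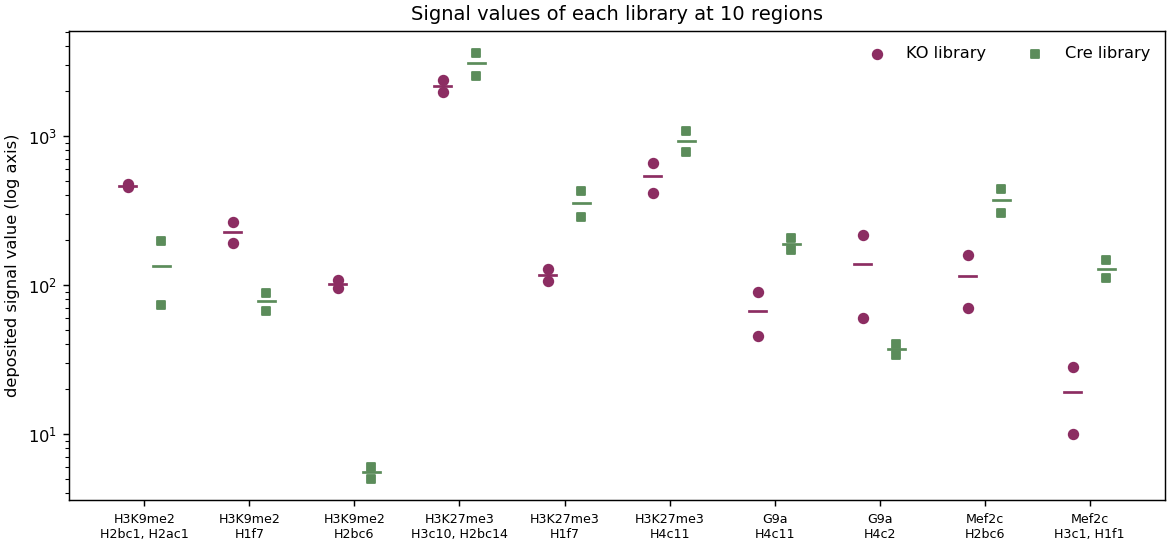
Deposited signal values (y axis, log scale) of the 2 KO (circles) and 2 Cre (squares) libraries at 10 histone regions, with a bar at each group's mean. The groups do not overlap in any of the 10, which were taken from the leading regions, and H3c10, H2bc14 shows the narrowest gap, 2362 in KO against 2510 in Cre.

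The smaller clusters had few regions by count, in windows of 29.5 kb on chromosome 3 and 9 kb on chromosome 11. Per 100 kb, chromosome 3 had 20.32 H3K9me2 and 3.387 H3K27me3 regions, and chromosome 11 had 22.3 and 44.59. All histone windows had 16.15 and 16.85. On chromosome 3, 10 genes had no Mef2c region and 1 H3K27me3 region, past the end of H3c14, with 23 and 31 in KO, against 46 and 71 in Cre. H3K9me2 over H2bc21 itself (chr3:96222401-96223350) had 158 and 213 in KO, against 70 and 106 in Cre, a log2 ratio of 1.07. Beside the gene (chr3:96224251-96225450) it had 111 and 87 in KO, against 270 and 238 in Cre, a log2 ratio of −1.35. Near H4c14 (chr3:96260901-96261650) it had 111 and 168 in KO, against 20 and 74 in Cre. The groups stood apart in all 3 regions, and the direction over H2bc21 was opposite to that beside it. On chromosome 11, H2bu2 had the highest H3K27me3 signal per length of the histone regions, 586.5 per kb (chr11:58949301-58950450), with 640 and 850 in KO, against 740 and 468 in Cre, and overlapping groups. H3K9me2 at H2bu2 (chr11:58948801-58950000) had 47 and 128 in KO, against 278 and 131 in Cre.

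By histone class, beside 6.92% of all genes with only lower and 14.9% with only higher H3K9me2 regions, H4 genes had no gene with only lower H3K9me2 regions and 5 of 13 with only higher ones. H3 genes had 3 of 12 in each direction, H2A genes 4 of 18 lower and 3 of 18 higher, H2B genes 3 of 18 lower and 2 of 18 higher, and H1 genes 1 of 10 in each. An H3K27me3 region lay at 7 of 10 H1 genes (70%), near the 69.1% of all genes, and at 4 of 12 H3 genes (33.3%). Neighbouring genes of different classes share regions, so the classes are not independent counts.

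Genes that work with histones are given next to the same backgrounds over all genes, for only lower and only higher regions 14.3% and 7.88% (G9a), 6.92% and 14.9% (H3K9me2), 12.8% and 9.14% (H3K27me3), and 14.7% and 7.39% (Mef2c). In a list of 15 genes a count of 1 is 6.67%. Of 11 replacement histone genes, which are used outside S phase and include the members H1f0 and H1f10, none had only lower and 5 only higher H3K9me2 regions. H3f3b, which encodes H3.3, had H3K9me2 of 171 and 120 in KO, against 45 and 83 in Cre, a log2 ratio of 1.17. Macroh2a1 had regions of both directions for H3K9me2 and for Mef2c. Its leading H3K9me2 region was listed at 0 in both Cre libraries, with 134 and 100 in KO. Its leading Mef2c region had 17 and 57 in KO, against 272 and 213 in Cre. The G9a list had 2 of them lower only and 2 higher only, the H3K27me3 list 0 and 0, and the Mef2c list 2 and 3. Of 15 genes of histone transcription and mRNA processing, 3 had only lower and 1 only higher G9a regions, 1 and 3 for H3K9me2, 1 and 1 for H3K27me3, and 1 and 1 for Mef2c. Npat, the activator of the clusters, had H3K9me2 regions of both directions, the leading one with 92 and 54 in KO, against 7 and 0 in Cre. Slbp, which binds the stem-loop, had only lower H3K9me2 regions, the leading one with 26 and 30 in KO, against 107 and 96 in Cre. Its leading G9a region had 44 and 172 in KO, against 22 and 49 in Cre, and overlapping groups. Of 15 histone chaperones, which carry histones to DNA, 4 had only lower and 4 only higher G9a regions, 1 and 4 for H3K9me2, 1 and 1 for H3K27me3, and 2 and 1 for Mef2c.

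Markers of other cell types could not be weighed by expression here. In the H3K27me3 list, which has a region at 69.1% of all genes and only lower ones at 12.8%, 3 of 8 cardiomyocyte marker genes had a region, none of them lower only, against 5 of 5 fibroblast, 4 of 4 endothelial, 3 of 4 leukocyte and 3 of 3 smooth muscle markers. Regions in both directions lay at all 5 fibroblast and all 4 endothelial markers. Of 4 markers of cycling cells, in which clustered histone genes are active, 1 had only lower and 3 both kinds of H3K27me3 region, and for H3K9me2 2 had only higher and 2 both. A part of the mix of cells in the histone values was not tested.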

How the data were processed

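The deposited lists hold, for each region, a cell of 4 whole-number signal values of a scale not given in the sources used here (2 Cre, 2 KO) and a −log10 p, written by the authors; the values were not treated as counts. Per the submitters' processing notes, BWA 0.7.10-r789, SAMtools 1.1 and the mm10 (GRCm38) build were used. For the region caller, the normalization and the use of inputs the labels give nothing. The antibodies, per the labels, were Sigma G6919 (G9a), Abcam ab1220 (H3K9me2), Millipore (H3K27me3) and Abcam ab43796 (Mef2c). The labels name the Polycomb mark H3K27me3 in titles, while the design text has H3K27me2; the title is used here. The sums of listed values, 44166378 to 114287041 per library, are not depths, so precision is set by the 2 libraries of each group.

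Regions overlapping a gene span or 2 kb either side, in the RefSeq annotation of GRCm38.p6, were assigned to that gene. Log2 ratios were taken of group means plus a pseudocount of 1. limma 3.58.1 in R 4.3.3 (eBayes with trend, no block, no filter on low values) was run on log2(value + 1) over every listed region on autosomes and X, with Benjamini-Hochberg adjustment and a threshold of 0.05. It was tested on simulated lists of 20000 regions with 200 changed and the same spread for every region of a list. After adjustment it recovered 0 (G9a), 0 (H3K9me2), 1 (H3K27me3) and 0 (Mef2c) of 200 changes of 2-fold. For changes of 8-fold it recovered 90, 136, 177 and 100 of 200. Regions were named by rule: for each target the 6 lower and 4 higher with the highest −log10 p, the 2 with the most signal per kb, the leading region of each H1 gene, genes with no region, and Ehmt2; others named were chosen after their values were seen. The members and lists were chosen with earlier results of these data known. Atrx and Cstf2, on X, were left out of the lists. Alternatives were a pseudocount of 5, a −log10 p of at least 5, a mean value of at least 20, windows of 5 kb or the gene span alone, regions with most of their length inside the window, libraries scaled to one median, each value left out, and, chosen after seeing the data, members of at most 5 kb, without the 4 unclustered linker genes, or without the 4 matched by an older symbol.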

Additional observations from a re-analysis of the deposited data

How the results depend on the processing

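No paired analysis was possible because the deposited values carry no replicate numbers; a value left out is the first or second listed of its group. No adjusted call was made under any alternative except leaving out one G9a value, where the count of G9a calls ranged from 0 to 2. Medians over listed regions moved most. The G9a median, 0.52, was −0.79 at a −log10 p of at least 5, −0.64 over gene spans alone and −0.0908 to 0.60 with one value left out. The H3K9me2 median, 0.63, was 1.07 at a −log10 p of at least 5, 0.93 over gene spans, −0.0135 for members of at most 5 kb, 0.38 with scaled libraries and −0.0439 to 0.44 with one value left out. The H3K27me3 median, −0.38, was −0.52, −0.51 in windows of 5 kb, 0.30 over gene spans, −0.10 scaled and −0.43 to −0.19 with one value left out. The Mef2c median, −0.98, was −1.32 at a −log10 p of at least 5 and −0.64 scaled. Genes with only lower regions over gene spans alone numbered 6 (G9a), 5 (H3K9me2), 9 (H3K27me3) and 4 (Mef2c), and with only higher ones 2 for G9a, 9 for H3K9me2 and 3 for Mef2c. In windows of 5 kb, only higher regions lay at 26 genes (H3K9me2), 3 genes (H3K27me3) and 20 genes (Mef2c), and only lower ones at 17 for Mef2c; that last count was 7 where the −log10 p was at least 5. Of 366 values of 61 named regions under alternatives, 359 kept direction and side of the threshold. With one value left out, the log2 difference ranged from −2.34 to 4.25 at H1f8 (G9a, chr6:115943951-115944800), −0.15 to 0.88 at H1f8 (G9a, chr6:115945051-115946150), −1.29 to 0.089 at H2bc1 and H2ac1 (H3K9me2, chr13:23935951-23936300), −0.0668 to 0.89 at H1f5 and H3c11 (H3K27me3) and −0.0093 to 6.28 at H1f6 and H4c3 (H3K27me3). The causes were not tested. A mean value of at least 20 removed 0 histone regions. Depth is unknown, so absence of a region shows no absence of signal.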
